A study of Homo sapiens with 4 samples.

Results

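The genes described here are the ligands BMP2, BMP4 and BMP7, the antagonist GREM1, the receptors BMPR1A and BMPR2, and the inhibitors of DNA binding ID1, ID2, ID3 and ID4. They were picked by symbol and not by a threshold on their values, but with earlier results of these data known. Of the 10 genes listed, 9 were found among the 25609 genes of the deposited table. BMP7 is not analysed here. Of the 9, 7 had a mean of at least 0.5 RPKM (a gene's reads divided by its exon length and by a library size) over the 4 libraries and were tested, among 16590 genes tested in all. BMP4 and ID4 lay under that limit. Each of the 7 had at least 0.996 RPKM in every library, so none was tested through a high level in a single group.

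The libraries hold total RNA of HK-2, an immortalised line of human kidney proximal tubule epithelium, labelled wild type. Of the 4, 2 are controls and 2 were given transforming growth factor β1 (TGF-β1) at 20 ng/mL for 24 h. All were deprived of serum for 24 h, and all had the uridine analogue 4-thiouridine at 100 μM for the final 20 h, so the controls carry both as well. The labels give a single protocol text for every sample, and it was assumed that controls went through all of it except TGF-β1. Nothing in the labels says whether the replicates were separate cultures, so p-values reflect only how these libraries vary, and that variation may be technical. A single cell line was used.

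Bone morphogenetic proteins (BMPs) are secreted relatives of TGF-β. A BMP dimer binds a type I receptor such as BMPR1A and the type II receptor BMPR2, the type II receptor phosphorylates the type I receptor, and that kinase activates SMAD1, SMAD5 and SMAD9. These enter the nucleus with SMAD4 and switch on target genes, of which the ID genes are the best known. ID proteins hold a helix-loop-helix domain but no DNA-binding region, and they trap partners such as TCF3 that other helix-loop-helix factors need. GREM1 (gremlin 1) binds BMP2, BMP4 and BMP7 outside the cell and keeps them from their receptors. In kidney epithelium, BMP7 is known for opposing TGF-β1, and gremlin is known for its rise in fibrotic tubules.

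The read totals recovered from the values ran from 3346215 to 5472339 per library, so a gene at a few RPKM rests on few reads. All 6 genes listed as a check of TGF-β1 treatment rose, among them TGFBI, a matrix protein named for its induction by TGF-β, from 113 ± 2.73 to 559 ± 33.0 RPKM (mean ± SD, n = 2 in each group, as in all values with ± here). The list was drawn up with earlier results of these data known, so it is not an independent check of the treatment. Of 10 epithelial markers in the table, 8 were tested. KRT8 and KRT18 rose and PAX8, KRT19 and EPCAM fell, and the summed level of the list was 362 to 391 RPKM in controls and 398 to 437 RPKM with TGF-β1. The proximal tubule marker CUBN had 1 or 2 reads per library. The endothelial genes CDH5 and VWF and the fibroblast gene COL1A2 had 0 reads in all 4 libraries. The 5 fibroblast and stromal genes in the table summed to 12.4 and 13.0 RPKM in controls and 9.02 and 7.06 RPKM with TGF-β1, nearly all of it from LUM. The 3 leukocyte genes summed to at most 0.75 RPKM. In bulk RNA, fewer cells that express a gene and less RNA per cell cannot be told apart.

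TGF-β1 left 5 of the 7 tested members higher and none lower. In the order of their log2 fold changes these were BMP2, BMPR2, ID1, ID3 and GREM1. ID2 and BMPR1A did not pass the test, and both had lower values with TGF-β1. The test was limma on log2(RPKM + 0.5) with Benjamini-Hochberg adjustment over all 16590 tested genes, and a gene counts as risen or fallen at an adjusted p below 0.05. By that rule 6.12% of all tested genes rose and 3% fell. At an unadjusted p below 0.05 the member counts were also 5 and 0. The share of all tested genes at that limit was not computed, so unadjusted counts, here and in the lists below, have no background. Limma's voom on the recovered reads gave 5 higher and 1 lower, BMPR1A. Of all 16526 genes tested with voom, 2002 were higher and 1354 lower, and voom counts in the lists below are read beside these. Both TGF-β1 libraries lay above both controls for 5 members, against 29.5% of all tested genes, and below both controls for 2 members, against 24.6%. The median log2 fold change was 1.13 over the 7 members and 0.03 over all tested genes.

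**Figure D1:**
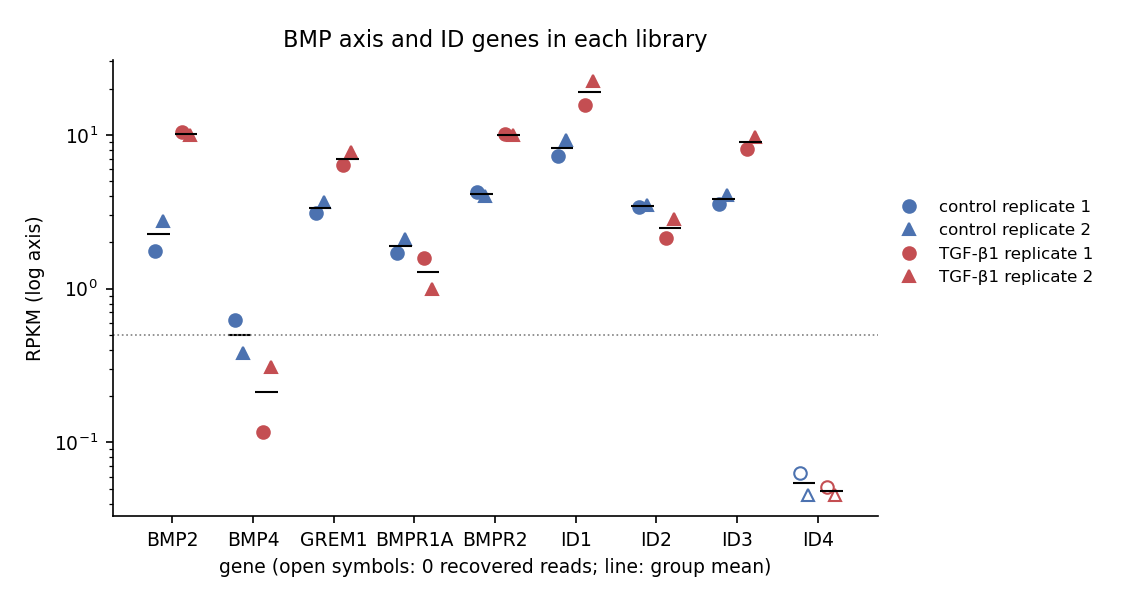
RPKM on a log axis for the 9 members in the table, with 1 symbol per library and a line at each group mean. The dotted line marks 0.5 RPKM, the limit on the mean over libraries. BMP2, GREM1, BMPR2, ID1 and ID3 show both TGF-β1 libraries above both controls, and ID4 has 0 reads throughout.

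BMP2 showed the largest rise of the members. The gene (ENSG00000125845.6, chr20:6767664-6780280, plus strand, hg38) encodes a ligand that acts through BMPR1A and BMPR2. It stood at 1.76 and 2.75 RPKM in the controls (21 and 46 reads) and at 10.5 and 9.94 RPKM with TGF-β1 (156 and 168 reads). The groups did not overlap, and the controls were the more scattered pair. The mean rose 4.52-fold, from 2.25 ± 0.698 to 10.2 ± 0.368 RPKM. The log2 fold change was 1.98 (SE 0.21, 95% interval 1.46 to 2.51, limma adjusted p = 0.00897), above 99.4% of tested genes.

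BMP4 (ENSG00000125378.15, chr14:53949736-53958761, minus strand), the close relative of BMP2, was barely detected. Its values were 0.622 and 0.380 RPKM in the controls and 0.117 and 0.310 RPKM with TGF-β1. These rest on 6, 5, 1 and 4 reads in that order. Scaled to library size, the ratio of TGF-β1 to control reads was 0.415, with an exact 95% interval for counting error of 0.113 to 1.30. That interval holds 1, so a difference was not detectable at this depth.

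GREM1 (ENSG00000166923.10, chr15:32717974-32745107, plus strand) rose as well, though less firmly. It stood at 3.10 and 3.63 RPKM in the controls (153 and 249 reads) and at 6.32 and 7.70 RPKM with TGF-β1 (383 and 529 reads), without overlap. The mean rose 2.08-fold, from 3.37 ± 0.378 to 7.01 ± 0.977 RPKM. The log2 fold change was 0.95 (SE 0.16, 95% interval 0.54 to 1.37, limma adjusted p = 0.0297). Leaving out control replicate 1 ended the call (adjusted p = 0.0691), as did leaving out either TGF-β1 library (0.0622 for replicate 1, 0.139 for replicate 2). With all 4 libraries it ended when every gene was tested (0.0548) or when limma's variance trend was dropped (0.0765).

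The ligand BMP2 and its antagonist both rose, and the ratio of ligand to antagonist was higher in both TGF-β1 libraries than in either control. BMP2 was 0.568 and 0.756 times the RPKM of GREM1 in the controls, and 1.66 and 1.29 times after TGF-β1. The log2 ratio of (RPKM + 0.5) was 1.03 higher with TGF-β1, and the groups did not overlap. An exact two-sided permutation test over 2 against 2 libraries cannot give a p below 0.333, and it gave 0.333 here (0.4 after Benjamini-Hochberg adjustment over the 6 ratios computed). Levels of RNA do not measure secreted protein.

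BMPR2 (ENSG00000204217.13, chr2:202376936-202567751, plus strand), the type II receptor that sets off the BMP receptor complex, rose with the smallest SE of the tested members. Its values were 4.27 and 4.01 RPKM in the controls (172 and 224 reads) and 10.1 and 9.91 RPKM with TGF-β1 (499 and 555 reads). The libraries of a group lay close together and the groups far apart. The mean rose 2.41-fold, from 4.14 ± 0.185 to 10.0 ± 0.132 RPKM. The log2 fold change was 1.18 (SE 0.11, 95% interval 0.89 to 1.46, limma adjusted p = 0.00733). A processed pseudogene inside the locus and on the same strand, AC073410.1, had 0 and 2 control reads against 13 and 7 with TGF-β1 (log2 fold change 2.10, limma adjusted p = 0.0531). Whether reads of BMPR2 transcripts are counted there was not tested.

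BMPR1A (ENSG00000107779.13, chr10:86756601-86932838, plus strand), a type I receptor for BMP2 and BMP4, did not pass the test. It stood at 1.69 and 2.12 RPKM in the controls (65 and 113 reads) and at 1.57 and 0.996 RPKM with TGF-β1 (74 and 53 reads). Both TGF-β1 libraries were lower, by little in replicate 1. The log2 fold change was -0.44 (SE 0.26, 95% interval -1.11 to 0.22, limma adjusted p = 0.378). With voom on recovered reads it was -0.64 (adjusted p = 0.0246), the only alternative that called it. Its count is uncertain, since 18.2% of the 32-base words of its exons also occur in other genes, 9.18% in its processed pseudogene BMPR1AP1.

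Within each library BMPR2 was 2.53 and 1.90 times the RPKM of BMPR1A in the controls and 6.43 and 9.96 times with TGF-β1. The log2 ratio was 1.62 higher with TGF-β1, without overlap, and the exact permutation p was again the smallest possible, 0.333.

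**Figure D2:**
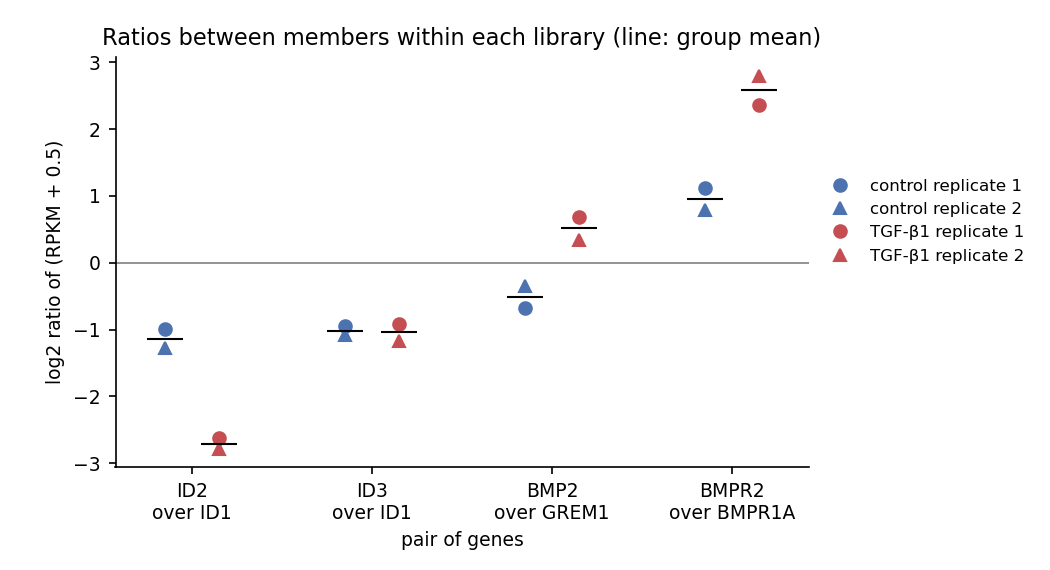
Log2 ratio of (RPKM + 0.5) between members within each of the 4 libraries, with a line at each group mean. The ratio of ID3 to ID1 overlaps between groups, while those of ID2 to ID1, BMP2 to GREM1 and BMPR2 to BMPR1A do not.

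The series is titled for miR-17 and miR-20a, sister microRNAs of a cluster on chromosome 13, and BMPR2 is a known target of that cluster. The mature sequences, from RefSeq on GRCh38.p14 (plus strand, chr13:91350618-91350640 and chr13:91351072-91351094), share the seed at bases 2 to 8, in capitals, by which they find targets.

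hsa-miR-17-5p: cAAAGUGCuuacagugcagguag

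hsa-miR-20a-5p: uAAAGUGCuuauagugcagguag

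The complement of the seed, GCACTTT, was searched on the coding strand of the longest annotated 3′ untranslated region (GENCODE 29) of the 9 members in the table. It occurred 4 times in BMPR2 (8049 bases) and 3 times in GREM1 (13862 bases). It was found 0 times in BMPR1A, whose region is of like size (9119 bases), and 0 times in BMP2, BMP4 and the 4 ID genes, whose regions run from 368 to 1489 bases. Of 853 tested genes with a region of at least 5000 bases, 70.1% held at least 1 match and 39.9% at least 2, so long regions commonly hold it. Shown in capitals within 30 bases of hg38 are the 2 upstream matches of BMPR2 (chr2:202560137-202560166 and chr2:202561454-202561483) and the most downstream match of GREM1 (chr15:32743636-32743665).

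BMPR2 site 1: tgttttttaagttttGCACTTTtgtttagt

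BMPR2 site 2: ttttttttaaataaaGCACTTTctgtcaaa

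GREM1 site 3: cctggggctggagacGCACTTTcaatgtgg

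A match is a description of these letters and not a shown target. The host transcript of the cluster, MIR17HG, had 11 and 25 control reads against 21 and 21 with TGF-β1 (log2 fold change 0.12, limma adjusted p = 0.829), and mature microRNAs are not measured by these libraries.

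ID1 was the most abundant member in both groups. The gene (ENSG00000125968.8, chr20:31605283-31606515, plus strand) is a direct target of BMP-activated SMADs. It stood at 7.30 and 9.23 RPKM in the controls (30 and 53 reads) and at 15.7 and 22.5 RPKM with TGF-β1 (80 and 130 reads). The groups did not overlap, and TGF-β1 replicate 2 was the highest. The mean rose 2.31-fold, from 8.26 ± 1.37 to 19.1 ± 4.79 RPKM, with a log2 fold change of 1.15 (SE 0.20, 95% interval 0.63 to 1.67, limma adjusted p = 0.0334). Leaving out control replicate 1 (adjusted p = 0.0699) or TGF-β1 replicate 2 (0.0739) ended the call. With all 4 libraries it ended when every gene was tested (0.0636) or when the variance trend was dropped (0.102).

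ID3 (ENSG00000117318.8, chr1:23557918-23559794, minus strand) rose by nearly the same factor. Its values were 3.53 and 4.08 RPKM in the controls (21 and 34 reads) and 8.10 and 9.75 RPKM with TGF-β1 (60 and 82 reads). The mean rose 2.34-fold, from 3.81 ± 0.393 to 8.93 ± 1.17 RPKM, without overlap. The log2 fold change was 1.13 (SE 0.15, 95% interval 0.74 to 1.51, limma adjusted p = 0.0167). Leaving out TGF-β1 replicate 2 (adjusted p = 0.0770) or dropping the variance trend (0.0613) ended the call.

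ID2 (ENSG00000115738.9, chr2:8678845-8684453, plus strand) went the other way in value without passing the test. It stood at 3.41 and 3.52 RPKM in the controls (25 and 36 reads) and at 2.13 and 2.84 RPKM with TGF-β1 (19 and 29 reads). Both TGF-β1 libraries were below both controls. The log2 fold change was -0.42 (SE 0.19, 95% interval -0.91 to 0.07, limma adjusted p = 0.26). The interval holds 0 and ends far below the values of ID1 and ID3.

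ID4 (ENSG00000172201.11, chr6:19837386-19840684, plus strand) had 0 reads in all 4 libraries, where 3 reads, the upper limit that a count of 0 allows, would have been 0.272 to 0.377 RPKM. The limit covers counting error only.

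The 3 detected ID genes were also compared as ratios within a library. ID2 was 0.468 and 0.381 times the RPKM of ID1 in the controls and 0.135 and 0.126 times with TGF-β1. That log2 ratio was 1.57 lower with TGF-β1 (value -1.57), without overlap, at the smallest exact permutation p of 0.333. ID3 was 0.484 and 0.442 times ID1 in the controls and 0.516 and 0.434 times with TGF-β1. Its log2 ratio differed by -0.02 with overlapping groups (exact permutation p = 1). The ratios of ID4 to ID1 and of BMP4 to GREM1, the other two of the 6, rest on 0 or few reads, and nothing is read from them.

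**Figure D3:**
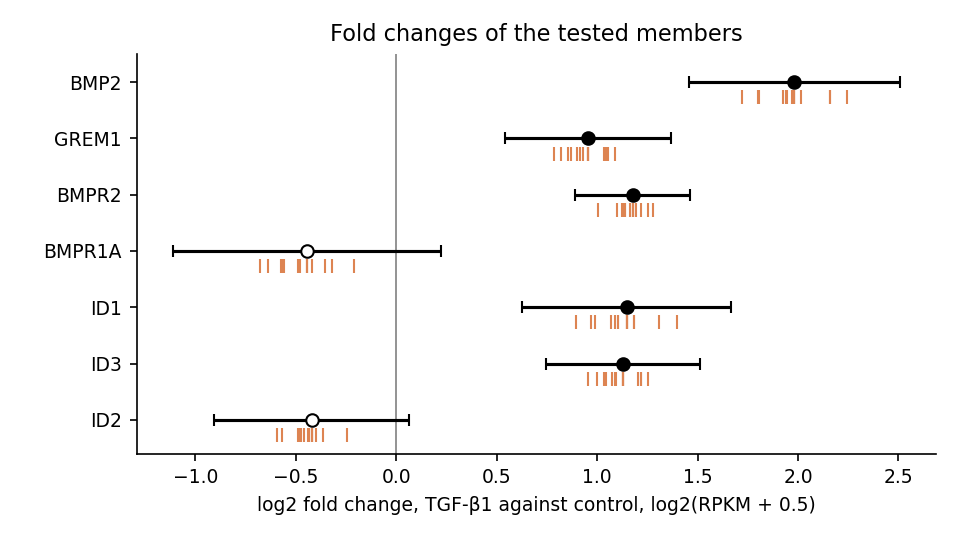
Log2 fold change of the 7 tested members with its 95% interval; filled points passed the test. The orange ticks below each point are the values under the alternative settings, which stay on the same side of 0 for all 7 members.

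Promoter windows of 250 bases before the annotated start were taken from RefSeq on GRCh38.p14 for the 8 members with an entry. Shown are those of ID1 (chr20:31605039-31605282, 244 bases that lie outside exons) and BMPR2 (chr2:202376077-202376326), members of different roles that rose by a like factor. Both are on the plus strand. Motifs in capitals are the SMAD-binding words GGCGCC, bound by SMAD1 and SMAD5, and CAGAC.

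ID1: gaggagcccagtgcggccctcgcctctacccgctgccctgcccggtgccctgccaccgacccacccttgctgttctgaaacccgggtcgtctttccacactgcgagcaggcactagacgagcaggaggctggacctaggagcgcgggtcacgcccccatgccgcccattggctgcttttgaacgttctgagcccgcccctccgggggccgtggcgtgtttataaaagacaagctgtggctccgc

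BMPR2: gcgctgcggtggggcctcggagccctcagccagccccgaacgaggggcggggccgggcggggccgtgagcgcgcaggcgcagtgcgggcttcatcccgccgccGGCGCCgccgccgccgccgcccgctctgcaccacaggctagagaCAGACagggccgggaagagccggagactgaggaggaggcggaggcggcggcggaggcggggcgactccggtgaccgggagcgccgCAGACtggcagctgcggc

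On both strands, the ID1 window held none of the 4 motifs searched. These were the SMAD words GGCGCC and, besides it, CAGAC. The third was TGACG, the core of the site for CREB and ATF factors, and the fourth CANNTG, the E-box of helix-loop-helix factors. The first and last of these read alike on both strands. The BMP-responsive element known for ID1 lies further upstream than this window. The BMPR2 window held GGCGCC 147 bases and CAGAC 103 and 18 bases before the start, and 1 CANNTG. These distances are to the RefSeq start. The GENCODE 29 start of BMPR2 (chr2:202376936) lies further downstream than the end of the window. The whole ID3 window and 229 of the 250 bases of the ID2 window lie in exons annotated by GENCODE 29, so they are upstream only of the RefSeq start. The ID3 window held CAGAC 147 bases before the start, overlapping TGACG on the reverse strand, and the ID2 window held 1 CANNTG and none of the others. Of 35116 windows of this length, 16.4% held GGCGCC, 38.0% CAGAC, 21.2% TGACG and 61.8% CANNTG, so these words are common.

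**Figure D4:**
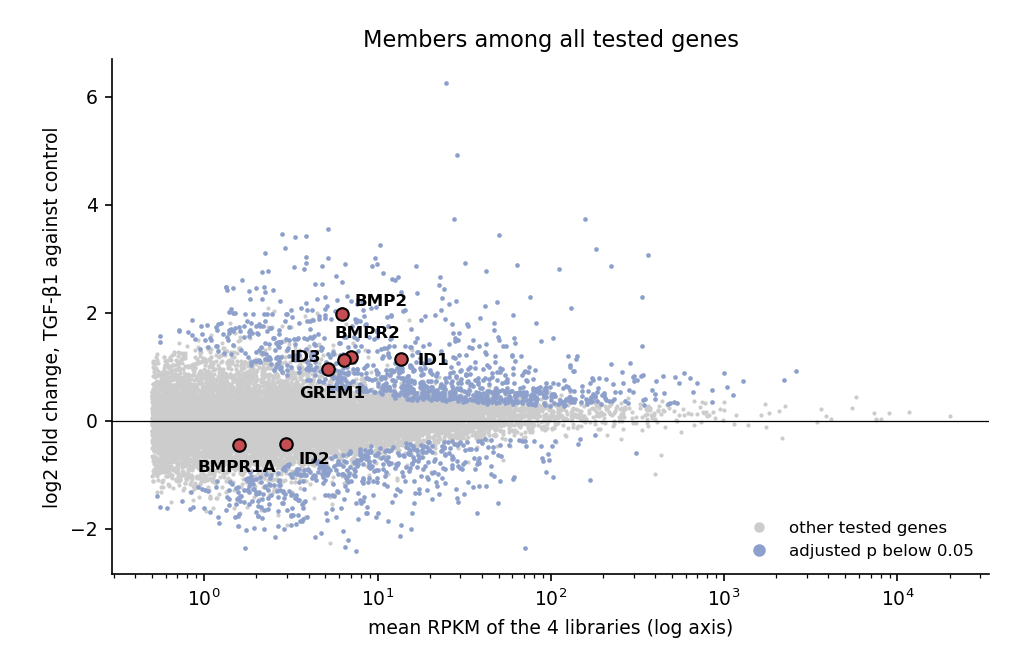
Log2 fold change against mean RPKM (log axis) for the 16590 tested genes, with the 7 tested members in red and other genes at an adjusted p below 0.05 in blue. BMP2, BMPR2, ID1, ID3 and GREM1 lie between 0.95 and 1.98, and ID2 and BMPR1A lie below 0 among genes that did not pass.

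In controls the order by RPKM, a level per exon length, ran ID1, BMPR2, ID3, ID2, GREM1, BMP2, BMPR1A and BMP4. Among neighbours the ranges of BMPR2 and ID3, of ID2 and GREM1, and of BMP2 and BMPR1A overlapped. Those of ID3 and GREM1 overlapped as well. With TGF-β1 the order ran ID1, BMP2, BMPR2, ID3, GREM1, ID2, BMPR1A and BMP4, and among neighbours the ranges of BMP2 and BMPR2 overlapped.

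Other genes of the pathway were taken from 6 lists by role. Without the members these lists named 109 genes, of which 91 were in the table and 55 were tested. Of the 55, 15 rose and 1 fell, against 6.12% and 3% of all tested genes. Their median log2 fold change was 0.25, against 0.03 over all tested genes. The counts by list below are read beside these shares, and the lists were drawn up with earlier results of these data known. The count of 15 became 8 without the variance trend, where 280 of all 16590 tested genes were higher. With voom it became 24, where 2002 of 16526 were higher. Without the trend, GDF6, BMP1, HES1, SNAI2, TCF3, BHLHE41 and HES6 lost their calls. Scaled by total reads, SNAI2 (adjusted p = 0.103), HES6 (0.0762) and TCF3 (0.0586) lost theirs, TCF3 also under quantile normalization (0.0597) and HES6 also with every gene tested (0.0754). Genes below that did not pass were picked after their values were seen.

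Of 17 BMP and GDF ligands, 10 were in the table and 3 were tested: BMP2 and GDF6 rose and BMP8B did not pass. GDF6, a BMP-type ligand of skeletal and eye development, went from 2.11 and 1.12 RPKM to 7.64 and 9.5 RPKM (log2 fold change 2.13, SE 0.27, limma adjusted p = 0.0149). BMP8B went from 1.54 ± 0.228 to 0.835 ± 0.158 RPKM (adjusted p = 0.210). At an unadjusted p below 0.05 and with voom, 2 ligands were higher and 0 lower.

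Of 14 receptors and co-receptors, 9 were tested, and BMPR2 and BAMBI rose. BAMBI, a pseudoreceptor without a kinase that blunts BMP and TGF-β signals, went from 2.23 and 1.79 RPKM to 9.10 and 8.40 RPKM (log2 fold change 1.88, SE 0.16, limma adjusted p = 0.00496). Of the other type I receptors, ACVR1 went from 4.84 ± 0.514 to 7.76 ± 0.875 RPKM (adjusted p = 0.0627) and BMPR1B from 2.06 ± 0.693 to 3.19 ± 0.224 RPKM (adjusted p = 0.248). None fell in limma, adjusted or at an unadjusted p below 0.05 (3 higher, 0 lower), while voom called 4 higher and 2 lower.

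Among 24 extracellular antagonists and modulators, 11 were tested and 4 rose: FSTL3, FURIN, BMP1 and GREM1. FSTL3, a follistatin-like binder of activins, went from 35.9 ± 0.273 to 128 ± 9.29 RPKM (limma adjusted p = 0.00127). FURIN, the protease that matures BMP and TGF-β precursors, went from 14.3 ± 0.196 to 45.0 ± 2.10 RPKM (adjusted p = 0.00143). BMP1, in spite of its name a protease that trims procollagen and cleaves the antagonist chordin, went from 26.9 ± 1.56 to 45.8 ± 1.43 RPKM (adjusted p = 0.00821). Those that rose are 2 proteases and 2 binding proteins. The BMP binders KCP (1.51 ± 0.113 to 0.392 ± 0.0813 RPKM, adjusted p = 0.0534) and CRIM1 (12.4 ± 0.798 to 7.08 ± 1.68 RPKM, adjusted p = 0.0597) narrowly missed the threshold. None passed as lower in limma with the settings above. At an unadjusted p below 0.05, 6 were higher and 2 lower, and voom also called 6 higher. The count of genes lower was 1 with a mean RPKM of at least 2, without the variance trend, with upper quartile scaling, with the replicate number as a block or without TGF-β1 replicate 2, and 2 with total-read scaling or voom.

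Of 19 SMADs and intracellular regulators, 18 were tested, 3 rose and 1 fell. SMAD7, the inhibitory SMAD of both pathways, had a log2 fold change of 2.05 (limma adjusted p = 0.00160). SMURF1, a ubiquitin ligase for SMAD1 and SMAD5, went from 12.4 ± 0.051 to 25.0 ± 0.233 RPKM (adjusted p = 0.00407), and SKIL, a SMAD corepressor, from 8.68 ± 0.619 to 20.0 ± 0.162 RPKM (adjusted p = 0.00453). SMAD7 and SKIL are also in the list that checks TGF-β1 treatment. NEDD4L, a ubiquitin ligase for activated SMAD2 and SMAD3, fell from 5.85 ± 0.424 to 2.60 ± 0.255 RPKM (adjusted p = 0.0210). The call of NEDD4L was lost without the variance trend and when any 1 of the 4 libraries was left out. Its log2 fold change ran from -1.19 to -0.93 over the 15 alternatives. The BMP-responsive SMADs themselves did not pass: SMAD1 had a log2 fold change of -0.09 (adjusted p = 0.863) and SMAD5 of 0.22 (adjusted p = 0.478), and SMAD9 had 1 to 3 reads per library.

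Of 19 further BMP target genes, 9 were tested and 4 rose: SMAD7, BAMBI, HES1 and SNAI2, all of which TGF-β can also switch on. Which signal their rise came from was not tested. HES1, a repressor best known from the Notch pathway, went from 13.9 ± 2.51 to 38.0 ± 6.09 RPKM (limma adjusted p = 0.0115). SNAI2, a repressor of epithelial genes, went from 6.94 ± 0.633 to 10.3 ± 0.116 RPKM (adjusted p = 0.0477), and 4 of 15 alternatives kept that call. It was lost when any 1 library was left out (adjusted p from 0.0555 to 0.181), with every gene tested (0.0703), and under each other scaling run (0.0517 to 0.103). SMAD6, the inhibitory SMAD most tied to BMP, went from 1.23 ± 0.0646 to 2.44 ± 0.345 RPKM (adjusted p = 0.0962). Homeobox gene MSX1, a classical BMP target, had a log2 fold change of 0.16 (adjusted p = 0.483). At an unadjusted p below 0.05 and with voom, 6 of the list were higher and 0 lower.

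Among 29 partners of ID proteins and other helix-loop-helix factors, 14 were tested and 6 rose. At an unadjusted p below 0.05, 10 were higher, and voom called 8 higher. TCF3, the E-protein that ID proteins bind, went from 32.3 ± 0.142 to 45.0 ± 2.59 RPKM (limma adjusted p = 0.0231). It remained more abundant per exon length than ID1 in every library. That call was lost when any 1 library was left out (adjusted p from 0.0534 to 0.11). TCF12, another E-protein, went from 2.68 ± 0.0762 to 4.19 ± 0.221 RPKM (adjusted p = 0.0910). The other five that rose are repressors of transcription or regulators of them: MSC (musculin) with a log2 fold change of 2.26, BHLHE40 with 1.49, HES1 with 1.42, BHLHE41 with 0.91 and HES6 with 0.90. The calls of BHLHE41 and HES6 were lost without control replicate 2 (adjusted p = 0.0529 and 0.0657) or TGF-β1 replicate 1 (0.113 and 0.143), that of BHLHE41 also without TGF-β1 replicate 2 (0.0876), and that of HES6 also without control replicate 1 (0.0965). At an unadjusted p below 0.05 and with voom, 0 were lower.

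**Figure D5:**
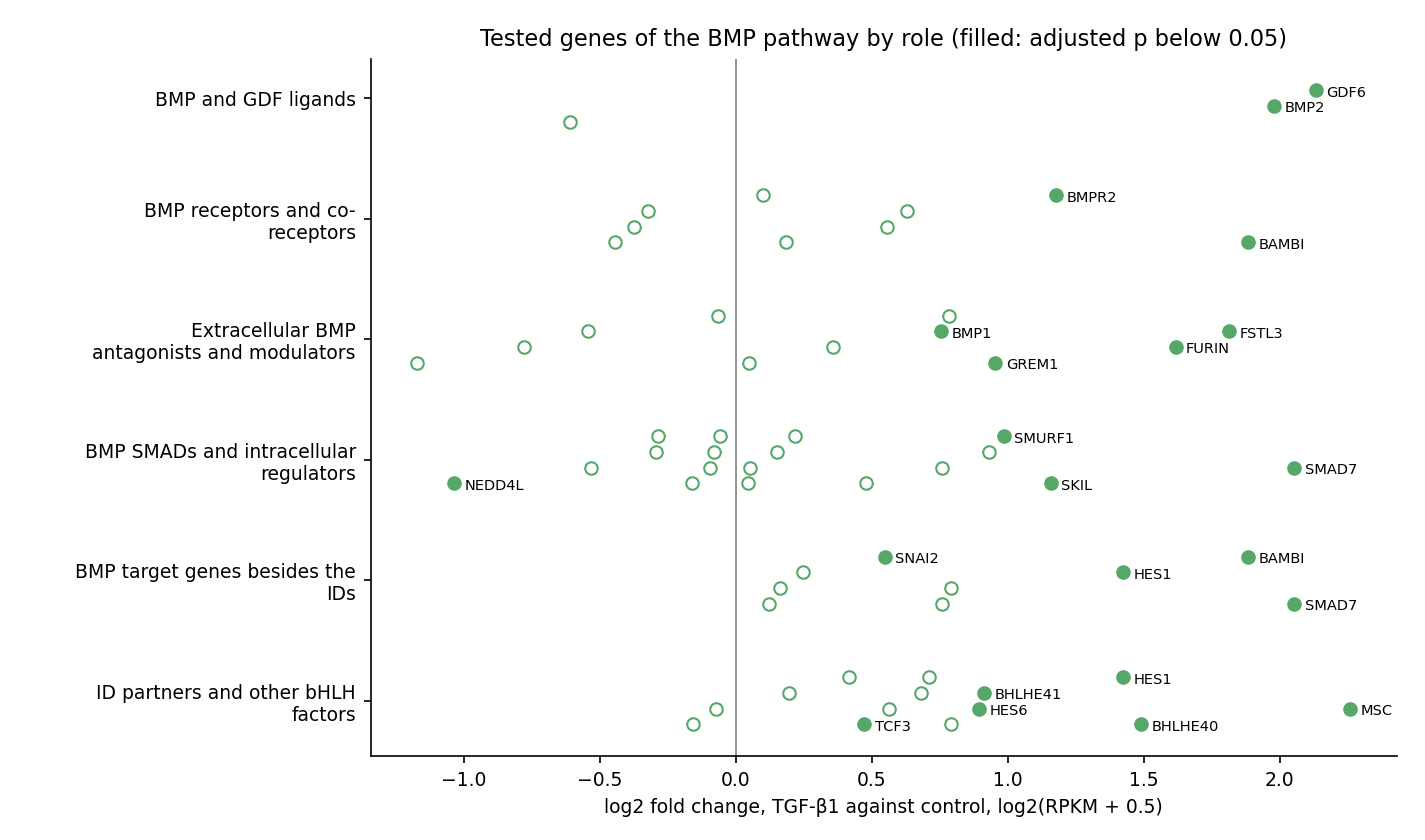
Log2 fold change of every tested gene in the 6 lists by role, members included; filled points passed the test and are named, and a gene in more than 1 list is drawn in each. Filled points lie to the right of 0 except NEDD4L at -1.04.

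Profiles over the 4 libraries were compared by the root mean square difference of centred log2 values. Nearest to ID1 were INPP4B (0.048), OSMR-DT (0.057) and STEAP1B-AS1 (0.068), none of which passed the test (limma adjusted p = 0.0638, 0.0653 and 0.0728), and 11 tested genes lay within 0.1. The control values of these 3 genes ran from 0.546 to 1.20 RPKM, near the pseudocount of 0.5. Their closeness to ID1 therefore depends on that setting too. Nearest to BMPR2 were ENO3 (0.035), ECI1-AS1 (0.036) and HIPK2 (0.036), and 66 genes lay within 0.1. ENO3 and HIPK2 passed the test (limma adjusted p = 0.00911 and 0.00176), and ECI1-AS1 did not (0.0643). ECI1-AS1 had 0.187 and 0.135 RPKM in controls and 1.07 and 0.943 RPKM with TGF-β1. It was therefore tested only through its level with TGF-β1. Its control values lie below the pseudocount, so its closeness to BMPR2 depends on that setting, and nothing is read from it.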

How the data were processed

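RNA-seq of 4 HK-2 libraries was used, grouped by title into 2 controls and 2 with TGF-β1. The authors deposited RPKM values per gene; tools listed without roles in the submitters' processing notes are STAR 2.7.1a, bcl2fastq 2.20.0.422 and DESeq2, with build hg38. Not given in the sources used here are the RPKM tool, its annotation and any strand setting. Reads of overlapping antisense genes may therefore not be separable. Per the labels' protocols, libraries came from a directional kit.

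Identifiers were paired with symbols (25312 of 25609) and with GENCODE 29 exon lengths. Each value was (whole reads + 0.5) times a library constant over exon length (tolerance 0.01 read), which gave reads for 99.6% of genes. The implied library sizes were 1.01 and 0.976 times the recovered totals in controls and 0.893 and 0.861 times in TGF-β1 libraries, which raises RPKM in the latter. Scaling by total reads instead shifted the median of all log2 fold changes by -0.15, and the share of calls that were higher from 67.1% to 42.4%.

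Genes whose RPKM averaged at least 0.5 were tested on log2(RPKM + 0.5) with limma 3.58.1 (R 4.3.3; lmFit, eBayes with a variance trend), adjusted over 16590 genes, without a replicate block. Log2 fold changes on this scale understate those of low genes. The procedure was also run on simulated counts, with larger changes than those of the members other than BMP2 and the same spread setting for every gene. No support for the calls is drawn from that run. Alternatives changed the pseudocount, filter, trend, scaling, test (voom on reads), block and libraries. The rule for names took all members, every called gene of each list up to 8, and the 3 profiles nearest to ID1 and to BMPR2. Members, lists and rules were chosen with earlier results of these data known. Promoter and microRNA sequences came from RefSeq (GRCh38.p14). Some genes and sites are not reported here. No column of per-sample values was left unused.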

Additional observations from a re-analysis of the deposited data

How the results depend on the processing

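Over 15 alternatives, BMP2 (log2 fold change 1.72 to 2.24) and BMPR2 (1.00 to 1.28) kept direction and call, and ID1, ID3, GREM1, ID2 and BMPR1A kept direction in every alternative that gave a value. The genes called numbered 1513, against 977 with no expression filter, 424 with no variance trend, 3356 with voom and 574 to 1138 when a library was left out. Members called higher fell from 5 to 3 with no filter and 2 with no trend, and ran from 2 to 5 without a library; voom called 1 lower. Calls were lost with no filter or no trend for ID1 (1.15) and GREM1 (0.95), and with no trend for ID3 (1.13); without a library ID1 ran from 0.90 to 1.40, ID3 from 1.00 to 1.25 and GREM1 from 0.82 to 1.09. BMPR1A was -0.64 with voom and had no value with a mean RPKM of at least 2. Pathway genes called higher went from 15 to 8 with no trend and 24 with voom. Pathway genes called lower went from 1 to 2 with a mean RPKM of at least 2, upper quartile scaling or the replicate block, to 4 with total reads or voom, and to between 0 and 1 without a library. The ID3 to ID1 difference of -0.02 became 0.020 with a pseudocount of 0.1 and ran from -0.15 to 0.10 without a library (0.05 without control replicate 1, 0.10 without TGF-β1 replicate 2); BMP4 to GREM1 became -2.01 with a pseudocount of 0.1. The cause of these shifts was not tested. With a library left out, the lone library of its group is assumed to vary like the other group. Same-numbered libraries share only a number (correlation of their deviations 0.0261). The replicate block gave 1344 calls (947 higher, 397 lower) and left the members called higher at 5, but HES6 (adjusted p = 0.0629) and SNAI2 (0.0705) lost their calls.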

Other observations

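Some genes of the pathway lay under the limit of 0.5 RPKM and were not tested, and they were picked after their values were seen. TCF4, an E-protein bound by ID proteins, had 19 and 17 control reads against 44 and 53 with TGF-β1. GDF7, a BMP-type ligand, had 0 and 1 control reads against 4 and 6 with TGF-β1. NOG, the antagonist noggin, had 0 reads in both controls and 2 in each TGF-β1 library, and ATOH8, a helix-loop-helix factor known as a BMP target, had 0 in both controls and 3 and 2 with TGF-β1. The ligand GDF5 had 2 reads in each control and 0 in both TGF-β1 libraries. At so few reads no fold is given.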
